A study of Rattus norvegicus with 9 samples.

Results

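Amino acid transporters are membrane proteins that move amino acids, and in part of the SLC6 family monoamines, taurine or creatine, into and out of cells and organelles. The genes described here are those whose symbol belongs to the solute carrier families SLC1, SLC3, SLC6, SLC7, SLC36, SLC38 and SLC43. The symbol pattern matched 59 of the 18964 genes in the deposited table. Of these, 58 are transporter genes or transporter subunits, and 1, Slc7a6os, is a gene beside Slc7a6 that does not encode a transporter. A filter on low counts kept 14643 genes for testing, among them 39 of the 59.

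Poly(A) RNA was sequenced from gastric lymphatic vessels, which drain lymph from the stomach wall, of wild-type male Sprague-Dawley rats, whose given weight was 180 to 220 g. Control rats were fasted for 12 h, were not stressed and received distilled water by gavage. Model rats had the same fast, were then placed one by one for 4 h in a pool filled to 15 cm, with the water at about 22 °C. This water-immersion stress produces gastric ulcers, and gavage followed 30 min afterwards. The sample labels call the gavage of the model group saline, whereas the treatment protocol calls it distilled water. BXD rats had the same fast and stress and were then gavaged with Banxia Xiexin decoction, a Chinese herbal decoction, at 10 ml per kg. Each group is represented by 3 libraries out of 6 rats a group in the study, and the labels do not tie a library to a rat. The p-values therefore reflect only how much these libraries vary, and that variation may be technical. A vessel dissected from tissue is a mixture of cells, and in such bulk RNA a change in the number of cells of a type and a change in RNA per cell cannot be told apart.

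The libraries held 12313823 to 13455701 counts each. All 10 lymphatic endothelial markers examined passed the filter, Prox1 and Lyve1 among them, with a summed level of 1010 to 1175 CPM (counts scaled to a common library size, with a correction for composition) in control, beside 34481 to 47811 CPM for 10 fibroblast markers. The lymphatic sum was 935 to 1685 CPM in model and 1377 to 1999 CPM in BXD. In model against control Lyve1 was called higher (log2 1.45), and Prox1 and Foxc2 were called lower (log2 -1.83 and -1.01). The 9 gastric mucosa markers in the table summed to at most 3.27 CPM in any library, and 0 of them passed the filter. Markers of other cell types moved with the groups, and no list had a marker at 0 in all 9 libraries among those tested. The 12 adipocyte markers, of which 11 were called higher in model than in control, summed to 6167 to 6703 CPM in control, 15502 to 27321 CPM in model and 11547 to 15772 CPM in BXD, with model replicate 2 the highest. The 10 smooth muscle markers summed to 4711 to 6969 CPM in control, 2329 to 3977 CPM in model, where 6 were called lower, and 6483 to 9820 CPM in BXD. The 10 macrophage markers, 6 of them called higher in model, summed to 570 to 729 CPM in control, 865 to 976 CPM in model and 653 to 747 CPM in BXD. The part of these cell types in the results on transporters was not tested. The 10 striated muscle markers summed to 33.8 to 40.9 CPM in control, but to 7275 CPM in BXD replicate 1, 3905 CPM in BXD replicate 3 and 411 CPM in model replicate 2, beside 73.8 CPM in BXD replicate 2. BXD replicates 1 and 3 therefore stand apart from the other libraries, and results that rest on them are given below with and without them. With both left out the BXD group is 1 library, so the p-values of that setting assume that it varies as the other groups do, and they carry no check of spread within BXD.

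Most of these carriers fall into a few working arrangements. Slc3a2 encodes the CD98 heavy chain, a subunit that brings light chains of the SLC7 family, such as LAT1 (Slc7a5), LAT2 (Slc7a8), y+LAT2 (Slc7a6) and xCT (Slc7a11), to the plasma membrane, where they exchange one amino acid for another. Sodium-coupled carriers of the SLC1 and SLC38 families accumulate glutamate or small neutral amino acids such as glutamine, which the exchangers can then trade for leucine and other essential amino acids. Several of these genes are known targets of ATF4, the transcription factor of the amino acid starvation response, which binds C/EBP-ATF response elements. At the lysosome, Slc38a9 reports arginine to the growth kinase complex mTORC1.

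Promoters of 4 members are shown because their transcripts take part in the changes described below and because they differ in 2 short motifs. The stretches are the 250 bases before the transcription start in RefSeq's GRCr8 annotation, written 5′ to 3′ in the direction of the gene. Capitals mark matches, on either strand, to TGATGNAA, the core of the C/EBP-ATF response element, or to CACGTG, the E-box. Slc7a1, Slc38a1 and Slc1a4 hold the first motif, Slc1a4 on the strand opposite to the gene, where it reads TTGCATCA.
Slc7a1, chr12:11664238-11664487, plus strand: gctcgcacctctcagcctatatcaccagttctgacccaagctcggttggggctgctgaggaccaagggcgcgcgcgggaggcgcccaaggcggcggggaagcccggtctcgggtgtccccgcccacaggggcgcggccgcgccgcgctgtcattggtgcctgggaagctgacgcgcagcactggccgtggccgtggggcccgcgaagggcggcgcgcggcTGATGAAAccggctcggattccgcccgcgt
Slc38a1, chr7:129681402-129681651, minus strand: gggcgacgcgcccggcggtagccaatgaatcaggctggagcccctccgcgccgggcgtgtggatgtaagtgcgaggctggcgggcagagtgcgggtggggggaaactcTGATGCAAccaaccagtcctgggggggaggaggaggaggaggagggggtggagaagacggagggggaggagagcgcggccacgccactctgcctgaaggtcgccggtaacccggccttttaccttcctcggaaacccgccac
Slc1a4, chr14:98761563-98761812, minus strand: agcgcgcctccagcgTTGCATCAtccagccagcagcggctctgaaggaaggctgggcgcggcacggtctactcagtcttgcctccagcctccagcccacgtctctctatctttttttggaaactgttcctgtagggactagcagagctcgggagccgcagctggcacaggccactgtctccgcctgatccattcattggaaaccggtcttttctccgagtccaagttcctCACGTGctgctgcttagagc
Slc7a5, chr19:66872413-66872662, minus strand: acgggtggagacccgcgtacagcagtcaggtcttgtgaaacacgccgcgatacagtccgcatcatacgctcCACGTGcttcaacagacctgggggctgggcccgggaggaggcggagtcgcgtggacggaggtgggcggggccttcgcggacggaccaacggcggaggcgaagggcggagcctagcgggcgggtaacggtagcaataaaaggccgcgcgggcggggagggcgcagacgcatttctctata
In Slc7a1 the match starts 30 bases before the transcription start and in Slc38a1 142 bases before it, while Slc7a5 holds only an E-box, 179 bases before the start. No match overlaps another. RefSeq promoters were found for 44 of the 59 members. TGATGNAA occurred in 3 of these 44 windows (6.82%) and in 3.27% of 27457 rat promoter windows of the same length. CACGTG occurred in 6 of the 44 (13.6%), those of Slc1a4, Slc7a5, Slc7a14, Slc36a1, Slc38a7 and Slc43a1, against 5.79% of all windows. The other motif searched, TGACGTCA, the cyclic AMP response element, was in 1 of the 44 (2.27%), that of Slc38a6, against 1.70%. These are matches of letters only, and the libraries hold no measurement of binding.

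Before any comparison, the levels of the transporters were ordered per length, in the deposited TPM, which scale each gene's reads to its length and to the library total. In control vessels the CD98 heavy chain gene Slc3a2 had the highest level of all members at 144 ± 11.3 TPM (SD, n = 3). Slc1a5, the neutral amino acid exchanger ASCT2 that carries glutamine, followed at 120 TPM and Slc38a2, the sodium-coupled carrier SNAT2, at 60.9 TPM. Next came Slc38a10 at 60.5 TPM, the glutamate transporter GLAST (Slc1a3), best known from astrocytes, at 48.3 TPM and the proton-coupled carrier PAT2 (Slc36a2) at 44.6 TPM. Among the 30 most abundant members the control libraries of neighbours in this order overlapped except at 5 places: Slc3a2 and Slc1a5, Slc1a5 and Slc38a2, Slc38a10 and Slc1a3, Slc6a8 and Slc43a1, and Slc7a8 and Slc7a1. The cystine exchanger xCT, Slc7a11, was barely present, at 0.071 to 0.519 CPM in control.

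Slc7a5 moved up in this order, from 6.18 TPM in control, at rank 22, to 18.0 TPM in model, at rank 11, and 27.9 TPM in BXD, at rank 9, as the plot of levels per length shows. Its heavy chain partner Slc3a2 was first in all 3 groups. The ratio of Slc3a2 to Slc7a5 in TPM was 21.4 to 24.9 in the control libraries, 9.01 to 12.6 in model and 4.80 to 10.6 in BXD, so the control libraries did not overlap either other group. LAT1 also passed LAT2: the TPM ratio of Slc7a5 to Slc7a8 was 0.567 to 0.740 in control, 1.47 to 2.14 in model and 2.08 to 4.22 in BXD. Among the cationic amino acid transporters, which carry arginine and lysine, the ratio of Slc7a1 (CAT1) to Slc7a2 (CAT2) was 1.47 to 2.11 in control, 4.23 to 5.46 in model and 4.72 to 6.04 in BXD.

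**Figure D1:**
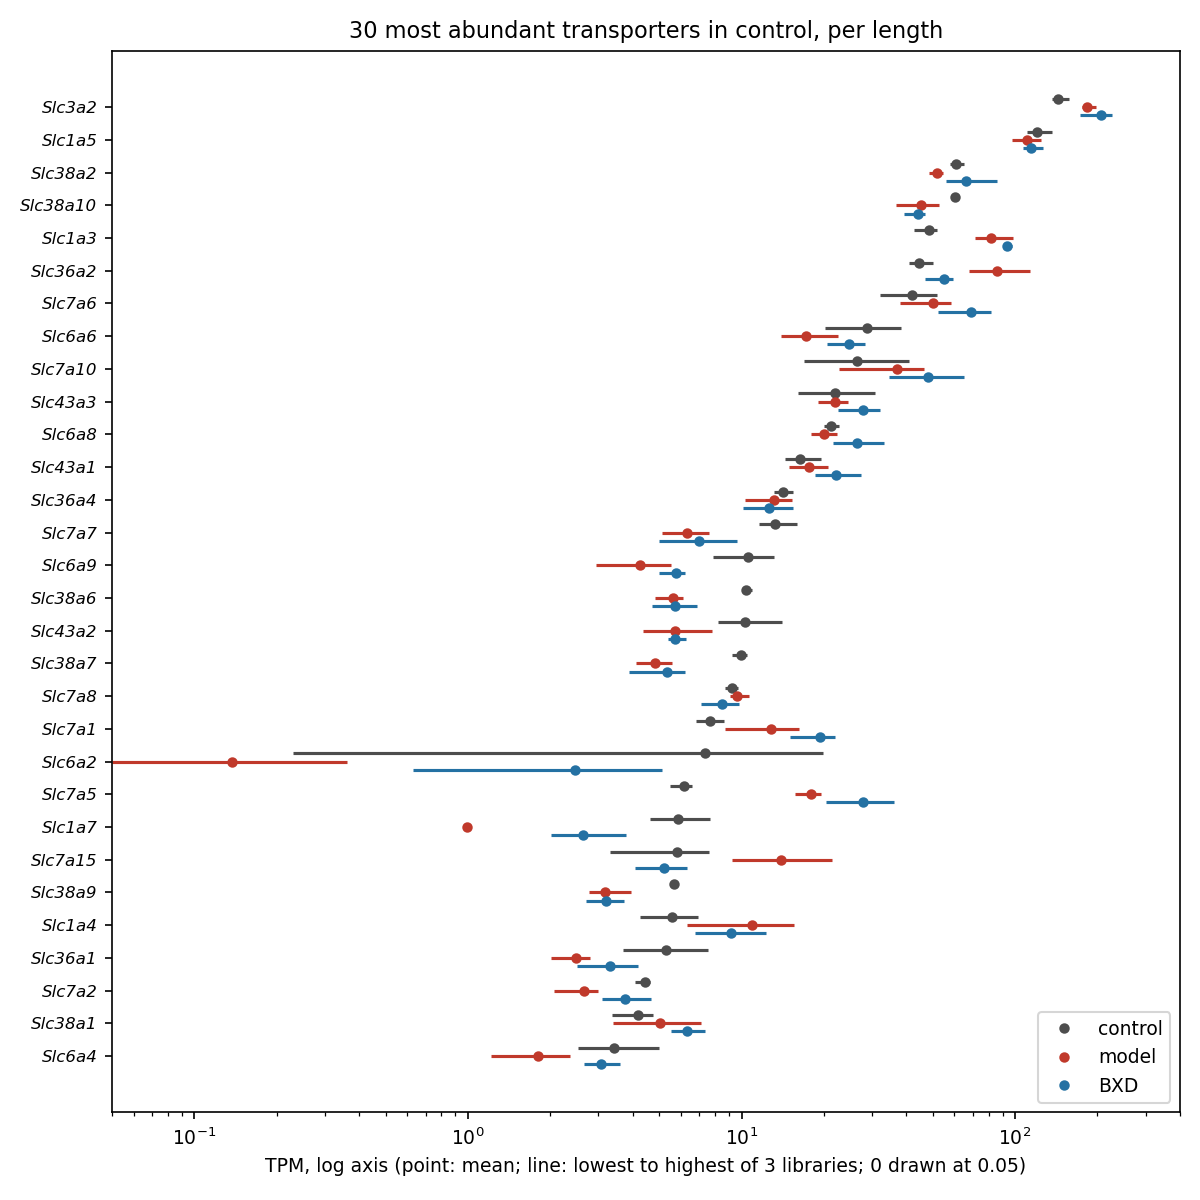
Level per length (TPM, log axis) of the 30 transporters most abundant in control vessels, with the mean (point) and the lowest to highest of 3 libraries (line) for control, model and BXD. Slc7a5 lies at 6.18 TPM in control, 18.0 in model and 27.9 in BXD, whereas Slc3a2 is first in each group.

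Summed over the 58 transporters, the level was 1419 to 1438 CPM in control, 1880 to 2254 CPM in model and 1986 to 2171 CPM in BXD. In TPM, which are not scaled for composition, the sums were 765.6 to 822.3 in control, 808.5 to 921.0 in model and 929.3 to 979.0 in BXD, so that control and model overlapped on that scale. Changes of a gene between groups are therefore read from CPM and the fit. TPM serves for the order of genes within each group and for the ratios of gene pairs within a library.

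The comparison of model with control asks what the stress procedure changed. The leucine exchanger Slc7a5 was 3.96-fold higher after stress, and its heavy chain Slc3a2, the cationic carrier Slc7a1 and the glutamate carrier Slc1a3 were also called higher. The glutamate carrier Slc1a7, the cationic carrier Slc7a2, the glycine carrier Slc6a9 and the lysosomal Slc38a7 and Slc38a9 were called lower. Of the 39 members tested, edgeR's quasi-likelihood test called 10 higher and 7 lower at an adjusted p under 0.05, which is 43.6%, and of all 14643 genes tested it called 42.2% (21.6% higher and 20.6% lower). The share called was thus near that of all genes. The median log2 fold change was 0.33 over the tested members and -0.01 over all genes. When libraries were scaled by their totals alone, both medians shifted down, to 0.06 and -0.28, the calls among members became 9 higher and 9 lower, and those over all genes 44.6% (11.1% higher and 33.5% lower). No called member changed sign under any scaling. One library weighed on these counts: without model replicate 2, 7 members were called higher and 2 lower, with 31% of all genes called (16.9% higher and 14.1% lower). The lower calls also fell from 7 to 4 without control replicate 1, 2 or 3 and to 3 without model replicate 3. Shares over all genes were not counted in those settings, so these falls cannot be set against them. By family, 3 of 5 tested SLC1 members, 5 of 10 SLC7 members (Slc7a6os among them), 1 of 3 SLC36 members and the single SLC3 member were called higher, and 1 SLC1 member, 1 SLC7 member, 3 of 7 SLC6 members and 2 of 10 SLC38 members were called lower. SLC43 had 0 calls among 3.

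The CD98 pair rose. Slc7a5 (gene 50719, chromosome 19, 54693959 to 54722563 in Rnor_6.0), the leucine exchanger LAT1, stood at 11.1, 12.5 and 13.0 CPM in the control libraries and at 51.2, 45.3 and 48.2 CPM in the model libraries. Every model library was above every control library and the spread within groups was small. The log2 fold change was 1.99 (SE 0.19, edgeR adjusted p = 0.000358). Slc3a2 (gene 50567, chromosome 1, 224906566 to 224921029), its heavy chain, stood at 136, 148 and 137 CPM in control and 228, 282 and 227 CPM in model, with a log2 fold change of 0.81 (SE 0.13, edgeR adjusted p = 0.00197). The groups did not overlap here either, and the rise of the heavy chain, 1.75-fold, was smaller than that of the light chain. Slc7a8, the LAT2 light chain, stood at 23.5, 21.1 and 21.1 CPM in control and 28.8, 37.2 and 27.9 CPM in model. Its log2 fold change of 0.52 (SE 0.16, edgeR adjusted p = 0.0310) depended on the scaling and on single libraries. It was 0.38 with upper quartile scaling and 0.24 with library totals alone (adjusted p of 0.0767 and 0.218 in edgeR), and 0.38 to 0.56 without control replicate 1, 2 or 3 or model replicate 2 (edgeR adjusted p of 0.0573 to 0.101).

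Among the other light chains, Slc7a6, which encodes y+LAT2, an exchanger of cationic for neutral amino acids, was at 89.7 ± 23.2 CPM in control and 147 ± 39.5 CPM in model (SD, n = 3) and was just outside the threshold (log2 0.71, edgeR adjusted p = 0.0512). Slc7a7, the related y+LAT1, had lower values in each model library than in each control library, 7.88 to 11 against 13.8 to 17.7 CPM, but missed the threshold (edgeR adjusted p = 0.0675). Slc7a10, the Asc-1 exchanger of alanine, serine, cysteine and glycine, known as a surface protein of white adipocytes, ranged from 17.7 to 43 CPM in control and from 31.1 to 62.6 CPM in model (edgeR adjusted p = 0.0855). It overlaps Lrp3 on the other strand and 8 of its 9 deposited counts were not whole, so its values are uncertain. Slc7a11 had an edgeR adjusted p of 0.279 at under 1 CPM.

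The cationic carriers moved apart. Slc7a1 (gene 25648, chromosome 12, 8032775 to 8108972), the widely expressed CAT1, stood at 30.5, 25.6 and 34.6 CPM in control and at 85.4, 50.4 and 69.4 CPM in model. The groups did not overlap, and the log2 fold change was 1.18 (SE 0.22, edgeR adjusted p = 0.00335). Slc7a2, the inducible CAT2, was called lower, from 10.5, 11.3 and 11.2 CPM to 8.50, 6.72 and 7.90 CPM, a log2 fold change of -0.51 (SE 0.16, edgeR adjusted p = 0.0287). That call was lost without control replicate 1, 2 or 3 or model replicate 2 or 3, where the log2 fold change was -0.56 to -0.42 and the edgeR adjusted p 0.0548 to 0.0881. Slc7a15 (gene 298873, chromosome 6, 33728107 to 33739115), a further SLC7 member, stood at 8.94, 9.61 and 4.42 CPM in control and 16.2, 41.7 and 19.1 CPM in model, a log2 fold change of 1.74 (SE 0.41, edgeR adjusted p = 0.00931). Model replicate 2 was far above the other model libraries, and without it the log2 fold change was 1.21 (edgeR adjusted p = 0.0267).

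Slc7a6os, the gene whose symbol only borrows that of a transporter, lies 1710 bases from Slc7a6 in the authors' annotation. It was higher in every model library than in every control library, rising from 20.9, 19.3 and 20.7 CPM in control to 42.8, 50.3 and 39.1 CPM in model (log2 1.11, SE 0.12, edgeR adjusted p = 0.000487).

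**Figure D2:**
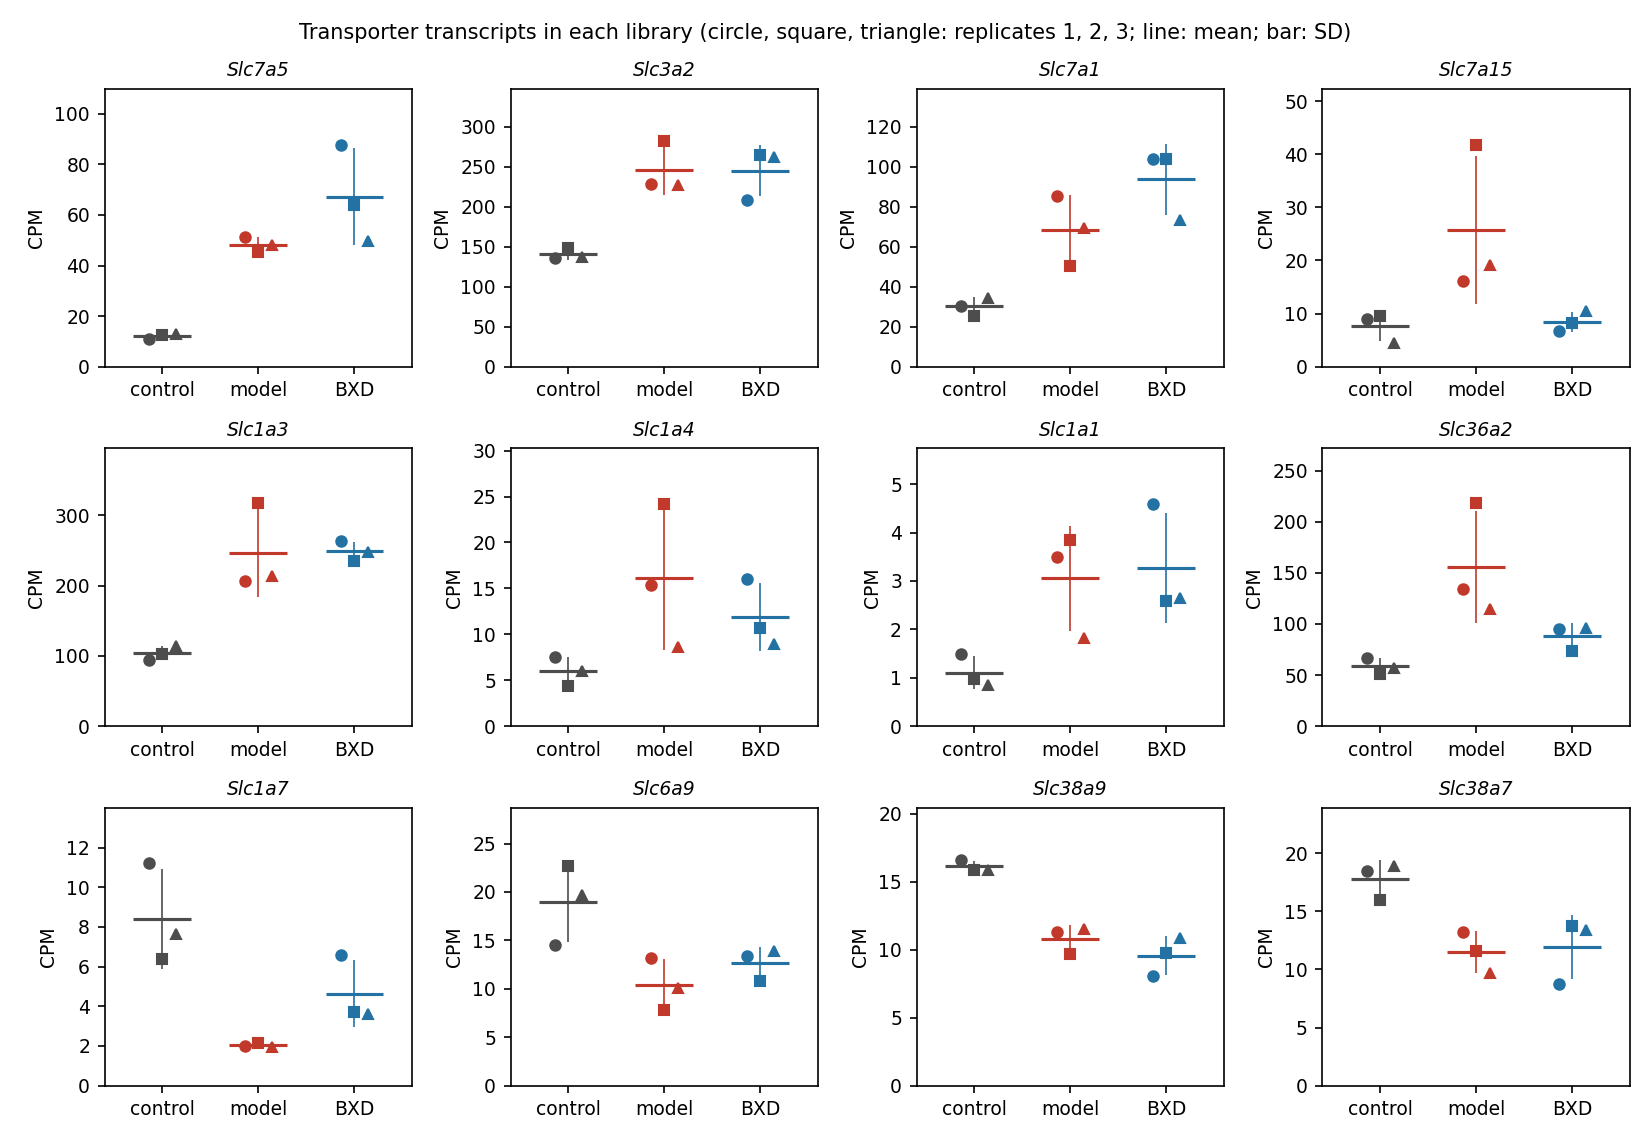
Level of 12 transporter transcripts in each library (CPM, linear axis from 0), with replicates 1, 2 and 3 as circle, square and triangle, the group mean as a line and the SD as a bar (n = 3). In Slc7a5 the control libraries lie at 11.1 to 13.0 CPM and the 6 stressed libraries at 45.3 to 87.7 CPM, and in Slc7a15 and Slc36a2 model replicate 2 is the highest library.

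Of the glutamate carriers of the SLC1 family, which clear glutamate and aspartate from the extracellular space, 2 rose and 1 fell. Slc1a3 (gene 29483, chromosome 2, 57860881 to 57935363), GLAST, stood at 94.2, 103 and 114 CPM in control and 207, 318 and 213 CPM in model. Every model library was above the control libraries, with a log2 fold change of 1.25 (SE 0.17, edgeR adjusted p = 0.000980). Slc1a1, the carrier EAAC1, which also takes up cysteine, rose from 1.49, 0.974 and 0.841 CPM to 3.50, 3.85 and 1.82 CPM (log2 1.46, SE 0.40, edgeR adjusted p = 0.0183). The groups did not overlap, but the call was lost without control replicate 2 or 3 or model replicate 1 or 2, at a log2 fold change of 1.27 to 1.36 and an edgeR adjusted p of 0.0503 to 0.0690. Slc1a7 (gene 366432, chromosome 5, 127571114 to 127616033), the carrier EAAT5, best known from the retina, fell from 11.2, 6.36 and 7.64 CPM to 2.01, 2.15 and 1.97 CPM. The model libraries lay close together and below all control libraries, 4.09-fold lower on the fitted scale (log2 -2.03, SE 0.32, edgeR adjusted p = 0.00176). Slc1a2, the main glutamate carrier of brain astrocytes, had 4 counts in all 9 libraries together and was not tested.

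Of the 2 neutral amino acid exchangers of the same family 1 was called, and the difference between them was not tested. Slc1a4, which encodes ASCT1, an exchanger of alanine, serine and cysteine, stood at 7.53, 4.35 and 6.03 CPM in control and 15.4, 24.2 and 8.66 CPM in model (log2 1.43, SE 0.38, edgeR adjusted p = 0.0166). Model replicate 2 was again the highest, and the call was lost without it or without control replicate 2 or 3, at a log2 fold change of 1.01 to 1.42 and an edgeR adjusted p of 0.0519 to 0.0644. Slc1a5, the more abundant ASCT2, was at 168 ± 23.7 CPM in control and 213 ± 27.3 CPM in model (SD, n = 3), with overlapping groups and an edgeR adjusted p of 0.0821.

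In the SLC36 family of proton-coupled carriers of small amino acids, Slc36a2 (gene 246235, chromosome 10, 40497184 to 40525033), PAT2, known as a surface protein of brown and beige adipocytes, stood at 67.0, 51.4 and 57.3 CPM in control and 134, 218 and 115 CPM in model. Every model library was above every control library (log2 1.41, SE 0.23, edgeR adjusted p = 0.00220). Without model replicate 2 the log2 fold change was 1.09 (edgeR adjusted p = 0.00306). The lysosomal carrier Slc36a1 and the neutral amino acid carrier Slc36a4 did not pass the test, at log2 fold changes of -0.61 and 0.33.

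Markers of brown adipocytes were high in the same libraries as Slc36a2 and Slc7a15. Of 10 tested brown adipocyte markers, 6 were called higher and 1 lower in model than in control, and the list summed to 1282, 1285 and 566 CPM in control, 2772, 7327 and 3380 CPM in model and 1030, 1433 and 1612 CPM in BXD. Ucp1, the uncoupling protein that defines brown fat, was well above 0 in every library, from 340 CPM in control replicate 3 to 5632 CPM in model replicate 2. Slc7a15 had its lowest value in control replicate 3 and its highest in model replicate 2, as did the marker list. Slc36a2 was also highest in model replicate 2, but its lowest value, 51.4 CPM, was in control replicate 2, where the list was at 1285 CPM. The part of adipocytes in these changes, in Slc7a10 and in the other members called higher was not tested.

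The 3 SLC6 members called in this comparison were all lower. Slc6a9, the glycine carrier GlyT1, stood at 14.5, 22.7 and 19.7 CPM in control and 13.2, 7.80 and 10.1 CPM in model, without overlap (log2 -0.87, SE 0.23, edgeR adjusted p = 0.0159). Without control replicate 2 or model replicate 2 the call was lost (log2 -0.73 and -0.70, edgeR adjusted p of 0.0582 and 0.0514), and it overlaps Ccdc24 on the same strand. Slc6a17, a vesicular carrier of neutral amino acids known from neurons, stood at 13.9, 7.40 and 11 CPM in control and 6.57, 3.14 and 3.19 CPM in model (log2 -1.33, SE 0.45, edgeR adjusted p = 0.0419). This call was lost without control replicate 1 or 3, model replicate 2 or 3, or BXD replicate 3, at a log2 fold change of -1.33 to -1.11 and an edgeR adjusted p of 0.0513 to 0.130. The carriers of taurine (Slc6a6), creatine (Slc6a8), serotonin (Slc6a4) and GABA (Slc6a13) did not pass the test, at edgeR adjusted p of 0.315, 0.114, 0.263 and 0.743.

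Slc6a2 (gene 83511, chromosome 19, 15391582 to 15431274), the noradrenaline carrier of sympathetic nerve endings, was called lower on very uneven values. It stood at 2.34, 22.8 and 0.280 CPM in control, 0, 0.627 and 0.0760 CPM in model and 0.918, 2.35 and 7.55 CPM in BXD. Control replicate 2 carried most of the control signal and control replicate 3 lay below model replicate 2, so the groups overlapped. The fitted log2 fold change was -5.17 (SE 1.70, edgeR adjusted p = 0.0367). It was -2.49 without control replicate 2 (edgeR adjusted p = 0.197), and the call was also lost without model replicate 1, 2 or 3 (log2 -4.61, -7.41 and -4.72, edgeR adjusted p of 0.103, 0.0644 and 0.107) and in limma-voom (log2 -4.19, adjusted p = 0.244). Dbh, the enzyme that makes noradrenaline, was uneven in the same libraries, at 11.2, 76.8 and 1.33 CPM in control, 0.0876, 3.67 and 0.228 CPM in model and 7.01, 9.89 and 41.7 CPM in BXD. Of 11 tested nerve and glia markers 6 were called lower and 1 higher in model, with a median log2 fold change of -2.16. The list summed to 433 to 768 CPM in control, 404 to 667 CPM in model and 441 to 752 CPM in BXD. S100b, the marker called higher, held much of the model sum. It stood at 155, 185 and 148 CPM in control and 287, 447 and 305 CPM in model. The part of these markers in the change of Slc6a2 and Slc6a17 was not tested.

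In the SLC38 family the abundant plasma membrane carriers of glutamine were not called, and 2 members of the lysosomal membrane were called lower. Slc38a9 (gene 310091, chromosome 2, 44512556 to 44592793), the arginine sensor upstream of mTORC1, stood at 16.6, 15.9 and 15.9 CPM in control and 11.3, 9.68 and 11.5 CPM in model. The control libraries were tightly grouped and above all model libraries (log2 -0.57, SE 0.15, edgeR adjusted p = 0.0146). Slc38a7, which exports glutamine from lysosomes, stood at 18.5, 16.0 and 18.9 CPM in control and 13.2, 11.6 and 9.65 CPM in model (log2 -0.63, SE 0.20, edgeR adjusted p = 0.0314). Its call was lost without control replicate 1 or 3 or model replicate 2 or 3, at a log2 fold change of -0.63 to -0.51 and an edgeR adjusted p of 0.0734 to 0.1. Slc38a2 was at 164 ± 14 CPM in control and 191 ± 20.7 CPM in model (SD, n = 3) and Slc38a1, the related SNAT1, at 18.3 ± 2.69 and 24.5 ± 6.98 CPM, with edgeR adjusted p of 0.333 and 0.147. Slc38a10 barely differed in mean (165 and 168 CPM), and the SLC43 members Slc43a1, Slc43a2 and Slc43a3 had edgeR adjusted p of 0.0511, 0.286 and 0.170.

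Counted by library values instead of the test, 15 members had every model library above every control library and 8 had every model library below, of 39, against 28.9% and 29.4% of all genes tested. Of the 17 called members, 16 had groups without overlap, Slc6a2 being the exception, and 41.5% of all genes were both called and without overlap. The calls of Slc7a5, Slc3a2, Slc7a1, Slc7a15, Slc7a6os, Slc1a3, Slc1a7, Slc36a2 and Slc38a9 held whichever single library was left out.

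**Figure D3:**
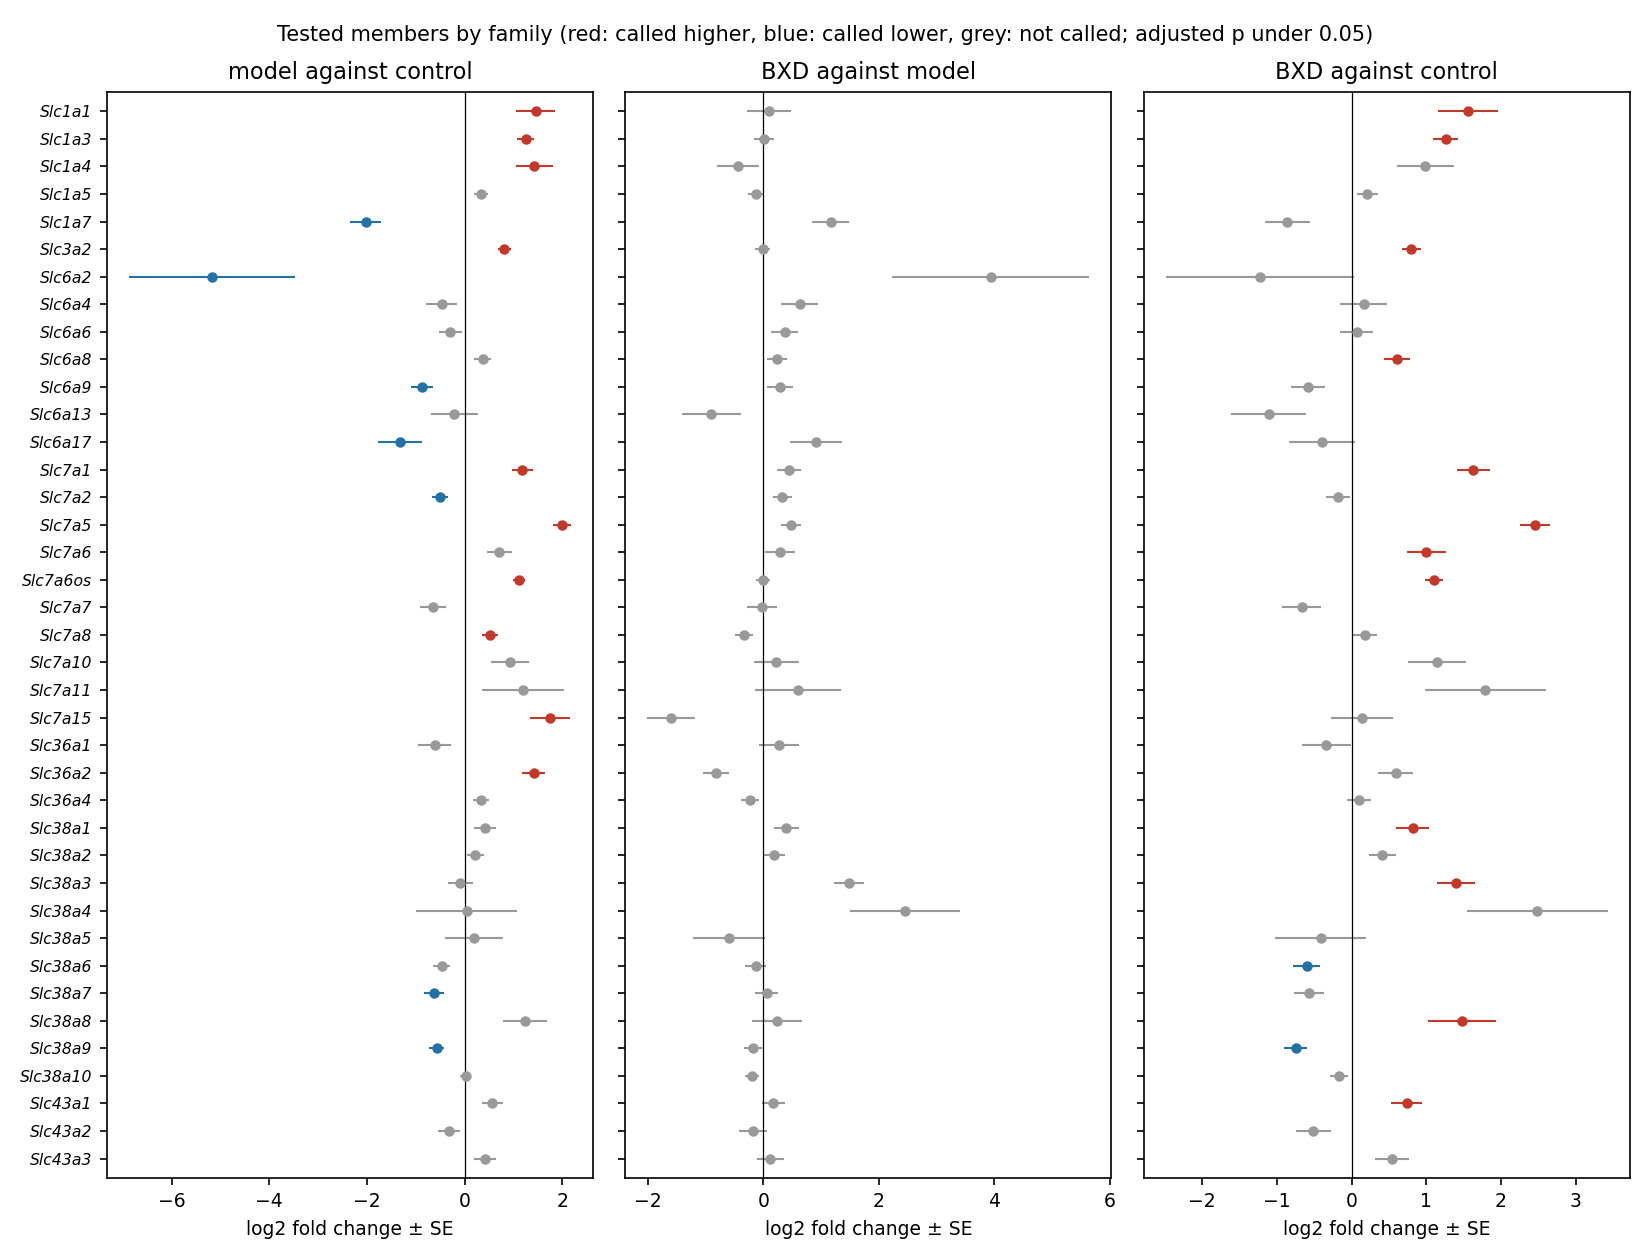
Log2 fold change ± SE of the 39 tested members, by family, in the 3 comparisons, with members called higher in red, called lower in blue and the rest in grey (edgeR adjusted p under 0.05). Model against control holds 10 red and 7 blue points, BXD against model 0 of either and BXD against control 12 red and 2 blue; the horizontal scales differ between panels.

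The comparison of BXD with model asks what the decoction changed in stressed vessels. edgeR called 0 of the 39 members in either direction, as it did nearly all genes, with 0.0615% of 14643 called (0.0546% higher and 0.00683% lower). At an unadjusted p under 0.05 there were 5 members higher and 2 lower, and of all genes 20.9% (11% higher and 9.85% lower). DESeq2 called 2 members higher (Slc38a3 and Slc1a7) and 2 lower (Slc7a15 and Slc36a2), beside 8.37% of all genes (4.77% higher and 3.6% lower), and limma-voom called 0, beside 0.0205% of all genes (0.0137% higher and 0.00683% lower). A p above the threshold does not show that the groups were alike.

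The member with the smallest p was Slc38a3 (gene 252919, chromosome 8, 116406258 to 116423752), the SNAT3 carrier that moves glutamine in both directions. It stood at 11.2, 6.83 and 8.30 CPM in BXD, 2.72, 3.23 and 3.42 CPM in model and 2.70, 3.12 and 4.14 CPM in control. All 3 BXD libraries were above the other 6, and the log2 fold change against model was 1.49 (SE 0.26, edgeR adjusted p = 0.0763). The call depended on the tool and on 1 library. The adjusted p was 0.000199 in DESeq2 and, without BXD replicate 2, 0.0456 in edgeR at a log2 fold change of 1.64. Its highest values were in BXD replicates 1 and 3, the libraries with most striated muscle transcripts. Without those 2 libraries the log2 fold change was 1.13 (edgeR adjusted p = 0.242). It then rests on BXD replicate 2 alone, whose striated muscle markers summed to 73.8 CPM, above the 33.8 to 40.9 CPM of control, and the part of striated muscle in the values of Slc38a3 was not tested further.

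The values of Slc38a4, the SNAT4 carrier of neutral and cationic amino acids, rested on the same 2 libraries. It stood at 5.93, 0.157 and 3.62 CPM in BXD and at 0.175 to 0.806 CPM in model, a log2 fold change of 2.45 (SE 0.95, edgeR adjusted p = 0.192). BXD replicate 2 was the lowest of all 9 libraries, and with BXD replicates 1 and 3 left out the sign turned, to a log2 fold change of -1.83 (edgeR adjusted p = 0.458).

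Slc7a15 and Slc36a2 had lower values in BXD than in model. Slc7a15 stood at 6.68, 8.16 and 10.4 CPM in BXD, below all model libraries and overlapping control, with a log2 fold change against model of -1.60 (SE 0.41, edgeR adjusted p = 0.111). Slc36a2 stood at 94.8, 73.7 and 96.2 CPM in BXD, between the control and the model libraries without touching either, with a log2 fold change against model of -0.82 (SE 0.23, edgeR adjusted p = 0.125). In DESeq2 the adjusted p was 0.00519 for Slc7a15 and 0.0215 for Slc36a2. Without model replicate 2 the log2 fold changes were -1.07 and -0.50 (edgeR adjusted p of 0.256 and 0.265). The brown adipocyte list, at 1030 to 1612 CPM in BXD and 2772 to 7327 CPM in model, was lower in the same libraries, and its part was not tested.

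Slc1a7, the EAAT5 gene that had fallen with stress, stood at 6.60, 3.69 and 3.62 CPM in BXD, above all model libraries, with a log2 fold change of 1.17 (SE 0.32, edgeR adjusted p = 0.121, DESeq2 adjusted p = 0.0310). Without BXD replicates 1 and 3 it was 0.85 (edgeR adjusted p = 0.345). Slc7a5 stood at 87.7, 64.1 and 49.8 CPM in BXD. BXD replicate 3 lay below model replicate 1, so the groups overlapped (log2 0.48, SE 0.18, edgeR adjusted p = 0.187). Slc3a2 and Slc1a3 had log2 fold changes of -0.01 (SE 0.13) and 0.01 (SE 0.17). In 5 members, Slc1a7, Slc6a2, Slc6a4, Slc7a2 and Slc38a3, every BXD library was above every model library, and in 2, Slc7a15 and Slc36a2, below, against 10.5% and 11.8% of all genes tested.

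**Figure D4:**
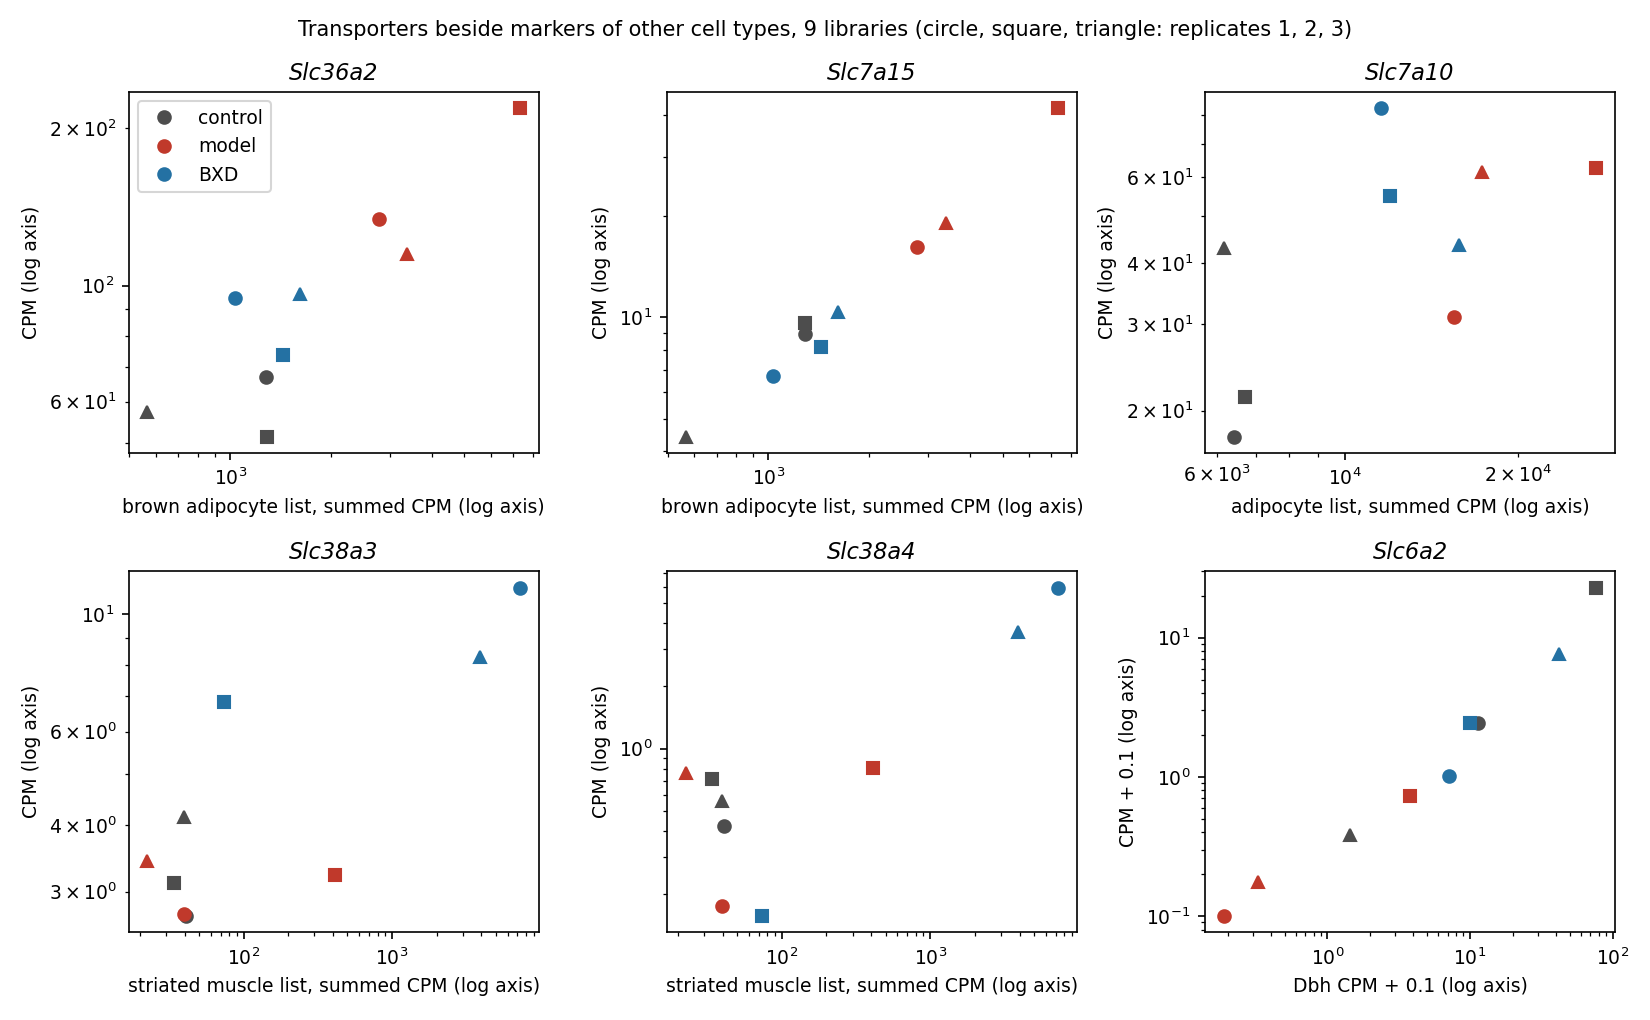
CPM of 6 transporters (vertical, log axis) against the summed CPM of a marker list, or Dbh, in the same library (horizontal, log axis), for 9 libraries with replicates 1, 2 and 3 as circle, square and triangle; 0.1 was added to the values of Slc6a2 and Dbh. BXD replicates 1 and 3, at 7275 and 3905 CPM of striated muscle markers, hold the highest values of Slc38a3 and Slc38a4, and model replicate 2, at 7327 CPM of brown adipocyte markers, those of Slc36a2 and Slc7a15.

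The comparison of BXD with control sets treated, stressed vessels beside unstressed ones; it uses the same control libraries as the comparison of model with control, so the 2 are not independent. Of the 39 tested members edgeR called 12 higher and 2 lower (35.9%), against 30.3% of all genes tested (16.1% higher and 14.3% lower). Each of these 14 had groups without overlap, as did 29.8% of all genes while also being called. Counted by library values alone, 16 members lay wholly above control and 7 wholly below, against 23.8% and 24.8% of all genes. The split depended on the scaling: it was 12 higher and 6 lower with upper quartile scaling (32.1% of all genes, 12% higher and 20.2% lower) and 8 higher and 7 lower with library totals alone (34% of all genes, 9.36% higher and 24.6% lower). With BXD replicates 1 and 3 left out it was 6 higher and 3 lower (15.4% of all genes, 8.73% higher and 6.66% lower). The 14 calls fell to 9 without control replicate 1 and to 9 without control replicate 3, and the 2 lower calls to 1 without BXD replicate 2 or any 1 control library. Shares over all genes with 1 library left out were not counted in this comparison.

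LAT1 and its partner were again high in BXD vessels. Slc7a5 had a log2 fold change of 2.46 (SE 0.20, edgeR adjusted p = 0.000482), a 5.52-fold difference. With BXD replicates 1 and 3 left out, which leaves only BXD replicate 2 at 64.1 CPM, the log2 fold change was 2.40. Slc3a2, at 208, 265 and 262 CPM in BXD, had a log2 fold change of 0.80, and Slc7a1, at 104, 104 and 73.3 CPM, one of 1.63 (edgeR adjusted p of 0.00281 and 0.00138). Slc1a3, at 263, 235 and 248 CPM, had a log2 fold change of 1.26 and Slc7a6os one of 1.11 (edgeR adjusted p of 0.00140 and 0.000791). Slc1a1, at 4.59, 2.59 and 2.64 CPM in BXD, had a log2 fold change of 1.56 (edgeR adjusted p = 0.0184). Its call was lost without control replicate 2 or 3 (log2 1.48 and 1.40, edgeR adjusted p of 0.0659 and 0.0677) and with BXD replicates 1 and 3 left out (1.23, adjusted p = 0.158).

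The members called against control in BXD whose calls in model had missed the threshold include 3 glutamine carriers of the SLC38 family; the difference between BXD and model in them is the comparison given above, in which edgeR called 0. Slc38a3 had a log2 fold change of 1.40 against control (SE 0.26, edgeR adjusted p = 0.00469), and of 1.04 with BXD replicates 1 and 3 left out (edgeR adjusted p = 0.0701). Slc38a1, whose promoter is printed above, stood at 15.2, 19.8 and 19.9 CPM in control and 27.7, 38.9 and 30.4 CPM in BXD, without overlap (log2 0.82, SE 0.22, edgeR adjusted p = 0.0209). Its call was lost without control replicate 1, 2 or 3 or BXD replicate 2 (log2 0.66 to 0.88, edgeR adjusted p of 0.0523 to 0.0816) and with library totals alone (0.61, adjusted p = 0.0849). With BXD replicates 1 and 3 left out, which leaves the highest BXD library, the log2 fold change was 1.09. Slc38a8, known from the eye and brain, was at most 2.43 CPM in any library (log2 1.48, edgeR adjusted p = 0.0348). Its call was lost without control replicate 1 or 3, any 1 model library or BXD replicate 2 or 3 (log2 1.13 to 1.57, edgeR adjusted p of 0.0501 to 0.124) or with BXD replicates 1 and 3 left out (1.88, adjusted p = 0.0833), and it overlaps Necab2 on the other strand.

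Slc7a6, the y+LAT2 light chain, stood at 92.0, 65.4 and 112 CPM in control and 137, 185 and 216 CPM in BXD. The groups did not overlap (log2 1.00, SE 0.26, edgeR adjusted p = 0.0189), and the call was lost without control replicate 1 or 2 or BXD replicate 2 or 3 (log2 0.82 to 1.02, edgeR adjusted p of 0.0530 to 0.0628) and with BXD replicates 1 and 3 left out, where the log2 fold change was 1.05 from BXD replicate 2 alone (edgeR adjusted p = 0.0833). Slc43a1, the facilitated leucine carrier LAT3, stood at 20.3, 25.9 and 21.2 CPM in control and 35.1, 30.8 and 46.5 CPM in BXD (log2 0.74, SE 0.21, edgeR adjusted p = 0.0256). Without control replicate 1 or 3 or BXD replicate 3 the call was lost (log2 0.55 to 0.69, edgeR adjusted p of 0.0816 to 0.0877), and with BXD replicates 1 and 3 left out the log2 fold change was 0.46 (edgeR adjusted p = 0.267). Slc6a8, the creatine carrier, stood at 52.1, 44.9 and 45.7 CPM in control and 91.9, 58.2 and 67.4 CPM in BXD (log2 0.61, SE 0.17, edgeR adjusted p = 0.0277). BXD replicate 1 was the highest, and the call was lost without it (log2 0.40, edgeR adjusted p = 0.0587), without control replicate 2 or 3 (log2 0.57 and 0.58, adjusted p of 0.0883 and 0.0847) and with BXD replicates 1 and 3 left out (0.30, adjusted p = 0.290). The part of striated muscle transcripts in this value was not tested further.

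The 2 members called lower in BXD than in control were Slc38a9 and Slc38a6. Slc38a9 stood at 8.10, 9.73 and 10.9 CPM in BXD, below all control libraries (log2 -0.75, SE 0.15, edgeR adjusted p = 0.00656). Slc38a6 stood at 15.3, 15.5 and 15.3 CPM in control, 9.46, 12.3 and 11.5 CPM in model and 12.3, 8.16 and 10.0 CPM in BXD, so the control libraries were above the other 6 (log2 -0.60 against control in BXD, SE 0.18, edgeR adjusted p = 0.0304). Its call was lost without control replicate 1, 2 or 3 or BXD replicate 2 or 3 (log2 -0.60 to -0.47, edgeR adjusted p of 0.0748 to 0.0944).

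Genes that make, sense and use amino acids were counted in 7 lists. The shares called over all genes, against which each count is to be read, were 42.2% in model against control (21.6% higher and 20.6% lower), 31% of all genes when model replicate 2 was left out (16.9% higher and 14.1% lower), and 30.3% in BXD against control (16.1% higher and 14.3% lower). Of 30 tested genes of the integrated stress response and amino acid synthesis, 11 were called higher and 4 lower in model than in control, with a median log2 fold change of 0.57. In BXD against control 10 were called higher and 2 lower, with a median of 0.63. That median was 0.35 with BXD replicates 1 and 3 left out. Without model replicate 2 the counts in model were 10 and 2. Psat1, an enzyme of serine synthesis, stood at 57.6 ± 9.06 CPM in control and 142 ± 12.4 CPM in model (SD, n = 3; log2 1.30, edgeR adjusted p = 0.00108). Mthfd2, a mitochondrial folate enzyme, had a log2 fold change of 1.78, and Ddit3, which encodes the stress factor CHOP, one of -0.89 (edgeR adjusted p of 0.00320 and 0.00339). The list therefore held calls in both directions, with Ddit3, Vldlr, Aldh18a1 and Eif2ak3 lower, the latter 3 singled out after their values were seen.

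Of 32 tested genes of amino acid sensing by mTORC1, 11 were called higher and 5 lower in model, beside 21.6% and 20.6% of all genes, with a median of 0.10. The small GTPases of the lysosomal surface Rraga and Rheb had log2 fold changes of 0.69 and 0.67, and Nprl3, a subunit of the GATOR1 complex that inhibits mTORC1, fell by 1.26 on the log2 scale (edgeR adjusted p of 0.00131, 0.00239 and 0.00201). In BXD against control 5 were higher and 6 lower, with a median of 0.08, and the median was 0.04 with BXD replicates 1 and 3 left out.

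Of 20 tested genes of branched-chain amino acid breakdown, the pathway that burns leucine, isoleucine and valine, 18 were called higher in model and 0 lower, with a median log2 fold change of 1.08, beside 42.2% of all genes called in either direction. Aldh6a1, an enzyme of valine breakdown, and Ppm1k, the phosphatase that activates the branched-chain keto acid dehydrogenase, had log2 fold changes of 1.46 and 1.57, and Bckdha, a subunit of that dehydrogenase, one of 1.23 (edgeR adjusted p of 0.000711, 0.00122 and 0.00126). Without model replicate 2 the count was 17, with a median of 0.83. In BXD against control 11 were called higher, with a median log2 fold change of 0.61. The median was 0.52 with BXD replicates 1 and 3 left out. That setting leaves 1 BXD library, so it cannot show whether the 11 calls hold. Adipocyte markers were higher in the same libraries, and their part was not tested.

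Of 15 tested genes of glutamine, glutamate and urea cycle metabolism, 7 were called higher and 1 lower in model, beside 21.6% and 20.6% of all genes, with a median of 0.54. In BXD against control 5 were called higher, with a median of 0.6. That median was 0.3 with BXD replicates 1 and 3 left out. Without model replicate 2, 4 of 16 were called higher and 0 lower, with a median of 0.45, beside 16.9% and 14.1% of all genes. Glul, glutamine synthetase, stood at 644, 779 and 705 CPM in control, 2559, 4519 and 2421 CPM in model and 2979, 2269 and 2542 CPM in BXD. The control libraries were below all others, with a log2 fold change of 2.16 in model (SE 0.24, edgeR adjusted p = 0.000527). Glud1, glutamate dehydrogenase, and Odc1, the first enzyme of polyamine synthesis from ornithine, had log2 fold changes of 0.89 and 0.95 (edgeR adjusted p of 0.000766 and 0.00117).

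In glutathione synthesis and turnover 4 of 13 tested genes were called higher and 2 lower in model (median 0.20), beside 21.6% and 20.6% of all genes. Without model replicate 2 these counts were 4 and 1. In BXD against control 2 were called higher, with a median of 0.24. That median was 0.05 with BXD replicates 1 and 3 left out. Ggct and Gclc, which encode a glutathione-cycle cyclotransferase and the catalytic subunit of the first step of glutathione synthesis, had log2 fold changes of 1.10 and 0.88, and Ggt5, a surface enzyme that cleaves glutathione, one of -1.05 (edgeR adjusted p of 0.00175, 0.00442 and 0.00199). Among 16 tested carriers of amino acids and peptides outside the 7 families, 3 were called higher and 1 lower in model (median -0.02), a smaller share than the 42.2% of all genes. Ctns, the cystine exporter of lysosomes, fell by 1.23 on the log2 scale (edgeR adjusted p = 0.00478). Slc25a38 and the aromatic amino acid carrier Slc16a10 had log2 fold changes of 0.52 and 0.83 (edgeR adjusted p of 0.0144 and 0.0249). The 3 higher calls of this list became 1 without model replicate 2. Of 17 genes of monoamine, GABA, creatine and taurine metabolism, 2 were higher and 3 lower in model, also a smaller share than over all genes. Cdo1 and Csad, enzymes on the path from cysteine to taurine, had log2 fold changes of 1.5 and 1.45, and Maoa, which breaks down monoamines, one of -0.50 (edgeR adjusted p of 0.000622, 0.00131 and 0.0261). The 3 lower calls became 1 without model replicate 2. In BXD against control 4 were higher and 1 lower, with a median of 0.15. The 4 were Cdo1, Csad, Ckm and Ckmt2. Ckm, also one of the striated muscle markers, stood at 853, 7.85 and 483 CPM in BXD, and Ckmt2 at 63.2, 0.392 and 41.4 CPM. Both were thus far higher in BXD replicates 1 and 3 than in BXD replicate 2. The median was 0.07 with BXD replicates 1 and 3 left out, which leaves 1 BXD library. In BXD against model edgeR called 0 genes in each of the 7 lists.

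The other 20 members did not pass the filter on low counts. Their highest mean over the 9 libraries was 0.912 CPM and their highest value in a library 2.34 CPM, both in Slc6a15, a neutral amino acid carrier known from neurons, with 36 counts in control replicate 2 and 24 in BXD replicate 3 against 5 to 9 in the other 7 libraries. Slc6a12, the betaine and GABA carrier, had 5 to 20 counts a library and Slc7a4 3 to 15. Slc3a1, Slc6a3, Slc7a12 and Slc7a13 had at most 3 counts in all libraries together. Slc3a1 and Slc7a9, the 2 subunits of the kidney cystine carrier, and Slc6a19, the main neutral amino acid carrier of the gut, were among the 20, at up to 5 counts a library. At this depth 3 counts amount to 0.195 to 0.269 CPM, for counting error only, and no comparison was made for these 20 genes.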

How the data were processed

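Per the file headers, the deposited values are estimated counts, FPKM and TPM of 18964 rat genes in 9 libraries. HISAT2 2.2.4, Bowtie2 2.2.5 and the Rnor_6.0 build are listed in the submitters' processing notes; the counting tool and strandedness are not given in the sources used here, so overlapping genes cannot be told apart. The authors' deposited table also gives log2 fold changes with p-values and q-values. A further 45 per-sample columns were not used.

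Counts were rounded (88.8% were whole within 1e-09) and filtered with filterByExpr, which kept 14643 genes. They were scaled by TMM (factors 0.873 to 1.15) and fitted with edgeR 4.0.16 (R 4.3.3; quasi-likelihood, robust, group as the only term, all 9 libraries, 6 residual degrees of freedom, biological variation 23.3%). Called means a Benjamini-Hochberg adjusted p under 0.05 over all genes tested. SE is the log2 fold change divided by the square root of F. Libraries were grouped by title. Replicates differed beyond sampling noise. The scripts were tested on simulated data. Alternatives were other scalings, no filter, DESeq2 1.42.0, limma 3.58.1 (voom, and log2 of FPKM plus 0.1 or 1), a replicate block, 2 groups only and leaving out libraries.

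Given in full were the called members of at least 1 CPM in model against control (up to 10 each way), the 3 with the smallest p in BXD against model, up to 5 called only against control in BXD and, of each list, up to 3 called genes with the smallest p. Further genes named, markers among them, were chosen after their values were seen. Members and lists were chosen with earlier results of these data known. Omeprazole-treated rats named in the protocol were not analysed here.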

Additional observations from a re-analysis of the deposited data

How the results depend on the processing

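Of the called members, 0 changed sign under any alternative. In model against control the counts of members called stayed within 1.5 times the main 10 higher and 7 lower under every alternative that kept all libraries. With 1 library left out, 7 to 12 were called higher and 2 to 9 lower, and without model replicate 2 the total fell from 17 to 9. The share over all genes was counted only without model replicate 2 (31% called), not with any other single library left out. In BXD against model DESeq2 called 2 higher and 2 lower in place of 0, and with 1 library left out 0 to 1 were called higher and 0 lower. In BXD against control the main 12 higher became 6 with BXD replicates 1 and 3 both left out, an alternative chosen after seeing the data, and 8 to 13 with 1 library left out. The 2 lower became 6 with upper quartile scaling, 7 with library totals alone, 4 in DESeq2, 4 in limma-voom, 7 with FPKM at either pseudocount, and 1 to 3 with 1 library left out. The 1 reversal among named values was Slc38a4 in BXD against model, -1.83 with BXD replicates 1 and 3 left out. Causes of these shifts were not tested. The labels number replicates in each group, but deviations of same-numbered libraries correlated at -0.43 to 0.09, so the numbers were not taken as pairs. With the replicate number as a block, edgeR called 15 members in model against control (10 higher and 5 lower, 14 of them among the main 17), 0 in BXD against model and 14 in BXD against control (12 higher and 2 lower, 13 shared).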

Other observations

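Several members lie side by side in Rnor_6.0, and neighbours did not always move alike. Slc36a2, called higher in model than in control (log2 1.41), lies 12980 bases from Slc36a1, which had a log2 fold change of -0.61 (edgeR adjusted p = 0.172), and 6925 bases from Slc36a3, which had 4, 10 and 17 counts over the control, model and BXD libraries and was not tested. Slc7a8 (log2 0.52) lies 309512 bases from Slc7a7 (log2 -0.65, edgeR adjusted p = 0.0675). Slc38a1 and Slc38a2, 48556 bases apart, had log2 fold changes of 0.82 and 0.41 in BXD against control (edgeR adjusted p of 0.0209 and 0.109). Slc43a1 and Slc43a3, 63889 bases apart, had 0.74 and 0.54 (edgeR adjusted p of 0.0256 and 0.102). These pairs were chosen after their values were seen, and differences within pairs were not tested.

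The authors' deposited table names DESeq2 in the headers of its q-value columns. It lists 14 members higher and 9 lower in model against control at a q-value under 0.05, of which 17 were also called by edgeR here. The share of all genes under that q-value in the deposited table was not counted in any comparison, so these counts cannot be set against it. For BXD against model it lists Slc38a3 and Slc6a2 higher and Slc7a15 lower, with q-values of 0.00139, 0.0190 and 0.00529, where edgeR called 0 members. DESeq2 as run here called Slc38a3 and Slc7a15 too, but not Slc6a2. For BXD against control it lists 15 higher and 2 lower, of which 13 were also called here.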
